A study of Mus musculus with 4 samples.

Results

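Ccl9, Ccl6, Ccl3, Ccl4 and Wfdc17 are 5 neighbouring protein-coding genes of mouse chromosome 11. They were taken by symbol from the 31053 gene entries of the deposited count tables, and all 5 were found. The set was chosen by measured values, the higher Ccl9 and lower Wfdc17 counts of STAT5-deficient stem and progenitor cells, so the ratios of these genes between the genotypes are a description and support nothing further. Bone marrow cells of 2 sorted populations and 2 genotypes were profiled by droplet 3′ single-cell RNA sequencing (chemistry version 3), with 1 library per group and therefore no replicate and no test. KLS cells are stem and progenitor cells sorted for c-Kit and Sca-1 after removal of lineage-marked cells, from mice of 8 to 12 weeks, 4 per the labels. MSC are bone marrow stromal cells of mice of 6 to 8 weeks, sorted as negative for CD45 and CD71, negative or low for Ter119, and positive for Sca-1 and CD140a. The STAT5 KO mice had the genotype Vav1-Cre/+ STAT5ab fl/fl, in which Cre is expressed in blood cells and deletes the linked genes Stat5a and Stat5b. The control mice were Vav1-Cre/+ STAT5ab+/+ and carried the Cre transgene too. Mice were pooled within a library, and single mice cannot be told apart.

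CC chemokines are small secreted proteins that draw leukocytes through G protein-coupled receptors. Ccl3 and Ccl4 are macrophage inflammatory proteins made by myeloid and lymphoid cells, and Ccl3 is also known as an inhibitor of the cycling of hematopoietic progenitors. Ccl6 and Ccl9 are related chemokines of mouse myeloid cells, and both act through Ccr1. Wfdc17 is a small secreted protein with a whey acidic protein domain, known from macrophages and microglia, where it dampens inflammatory activation.

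The control and STAT5 KO libraries kept 3085 and 6726 KLS cells, and 578 and 374 MSC. Median depth was 15136 and 10085 unique molecular identifiers (UMIs) per cell in the KLS libraries, and 2738 and 2496 in the MSC libraries, in the same order. Between 200 and 393 barcodes of a library also occurred in another library, and cells with more UMIs under that barcode elsewhere were left out. The targeted genes were lower in KLS STAT5 KO. Stat5a was at 68.5 counts per 1000000 UMIs (CPM) in control against 6.74 CPM in STAT5 KO, and Stat5b at 60.8 and 4.49 CPM. The 3′ reads do not show which part of each gene was deleted. In the MSC libraries Stat5a was at 39.8 and 55.0 CPM and Stat5b at 50.03 and 46.7 CPM. The 4 general blood and progenitor markers (Ptprc, Kit, Ly6a, Cd34) were all detected in both KLS libraries, at a summed 949 and 830 CPM. They were all detected in both MSC libraries too, at a summed 980 and 636 CPM, so their sum does not separate the sorts. Ptprc was at 153 and 154 CPM in KLS against 3.98 and 5.84 CPM in MSC. Kit and Cd34 were also lower in MSC, and Ly6a was higher. All 6 stromal markers were detected in both MSC libraries, at a summed 33782 and 26192 CPM against 1.27 and 1.66 CPM in the KLS libraries.

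On the GRCm38 build the genes span 133 kb, from base 83572919 to base 83706268 of chromosome 11. Ccl9 (ENSMUSG00000019122) lies at chr11:83572919-83578636 on the minus strand, Ccl6 (ENSMUSG00000018927) at chr11:83587882-83593087 on the minus strand, and Ccl3 (ENSMUSG00000000982) at chr11:83647844-83649355 on the minus strand. Ccl4 (ENSMUSG00000018930) lies at chr11:83662584-83664683 and Wfdc17 (ENSMUSG00000069792) at chr11:83703991-83706268, both on the plus strand. Ccl6 overlaps another annotated gene on the opposite strand, and the strand rule of the counting is not given in the sources used here. The starts of the 5 genes lie 17.2 to 17.3 Mb from the start of Stat5a on the same chromosome.

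The 250 bases before the start of Ccl9, Wfdc17 and Ccl6 are shown 5′ to 3′, because Ccl9 and Wfdc17 differed between the KLS libraries in opposite directions while Ccl6, the nearest neighbour of Ccl9, was at a low level in both. They are RefSeq promoter windows of GRCm38.p6, chr11:83578637-83578886 (minus strand) for Ccl9, chr11:83703806-83704055 (plus strand) for Wfdc17 and chr11:83593088-83593337 (minus strand) for Ccl6. RefSeq held a window for 4 of the 5 genes, and distances are counted from the RefSeq starts. The RefSeq start of Wfdc17 lies downstream of the gene start given above, base 83703991. The last part of its window thus lies within the gene as placed there. Capitals mark the motif matches described after the sequences.
Ccl9: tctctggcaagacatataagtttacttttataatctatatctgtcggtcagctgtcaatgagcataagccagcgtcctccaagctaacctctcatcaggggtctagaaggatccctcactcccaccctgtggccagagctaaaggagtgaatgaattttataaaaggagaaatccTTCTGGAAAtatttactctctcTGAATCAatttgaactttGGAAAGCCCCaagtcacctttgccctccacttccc
Wfdc17: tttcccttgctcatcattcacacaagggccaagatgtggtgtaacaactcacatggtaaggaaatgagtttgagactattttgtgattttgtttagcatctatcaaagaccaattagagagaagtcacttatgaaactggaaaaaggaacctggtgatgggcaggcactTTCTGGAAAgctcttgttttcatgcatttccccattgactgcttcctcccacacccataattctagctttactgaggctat
Ccl6: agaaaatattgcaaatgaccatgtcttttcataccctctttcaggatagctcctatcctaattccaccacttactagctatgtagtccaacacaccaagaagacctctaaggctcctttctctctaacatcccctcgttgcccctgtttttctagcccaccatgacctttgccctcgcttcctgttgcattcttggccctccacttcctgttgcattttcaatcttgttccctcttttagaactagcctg

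Both strands of the windows were searched for 4 motifs. The STAT motif TTCNNNGAA had no match in the windows of Ccl9, Ccl6, Ccl3 and Wfdc17, against 7.02% of all 32851 RefSeq windows of that length. The PU.1 motif GAGGAAGT also had none, against 2.44%. The Ccl9 window held 1 match to the AP-1 motif TGANTCA, 47 to 53 bases before the start, which 6.75% of windows hold. It also held 1 match to a 10-base NF-kB motif on the opposite strand (GGAAAGCCCC as printed, 26 to 35 bases before the start), which 1.41% of windows hold. The longest run that the Ccl9 and Wfdc17 windows shared was the 9 bases TTCTGGAAA. It lies 67 to 75 and 73 to 81 bases before their RefSeq starts, and nearer to the other start of Wfdc17. Of all windows 0.591% hold it. That word was chosen after the sequences were seen and overlaps no other match. The windows of Ccl9 and Ccl6 shared a run of 13 bases. These are matches of letters only.

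In KLS cells Ccl9 was higher and Wfdc17 lower in the STAT5 KO library, while Ccl3 and Ccl4 were slightly higher and Ccl6 was low in both libraries. Levels are sums of UMIs over cells, scaled to CPM, with exact 95% Poisson intervals that cover counting error only. Each UMI stands for 1 captured transcript end, so these levels do not scale with gene length. Ccl9 was at 66.7 CPM in control (64.5 to 69.0, 3412 UMIs) and 149 CPM in STAT5 KO (147 to 152, 11407 UMIs). That is 2.24-fold higher in STAT5 KO, a log2 ratio of 1.16 with a counting interval of 1.11 to 1.22. Wfdc17 was at 115 CPM in control (113 to 118, 5906 UMIs) and 44.1 CPM in STAT5 KO (42.6 to 45.6, 3368 UMIs). It was 2.62-fold lower in STAT5 KO, a log2 ratio of -1.39 (-1.45 to -1.33). The order of the genotypes was thus opposite for these genes, which lie 17.3 and 17.2 Mb from Stat5a.

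The genes between them differed less. Ccl3 was at 99.6 CPM (96.8 to 102) in control against 123 CPM (121 to 126) in STAT5 KO, a log2 ratio of 0.31 (0.26 to 0.36). Ccl4 was at 88.95 CPM (86.4 to 91.6) in control against 104 CPM (102 to 106) in STAT5 KO, a log2 ratio of 0.22 (0.17 to 0.28). Ccl6 was at 1.99 CPM (102 UMIs) and 2.03 CPM (155 UMIs), a log2 ratio of 0.025 whose interval, -0.34 to 0.40, includes no difference. With every cell given the same weight (the mean of single-cell CPM) the log2 ratios were 0.20 for Ccl3, 0.056 for Ccl4 and -0.49 for Ccl6. In the control library the 4 higher members stood in the order Wfdc17, Ccl3, Ccl4 and Ccl9, and in STAT5 KO in the order Ccl9, Ccl3, Ccl4 and Wfdc17, with no overlap of neighbouring counting intervals.

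Against all genes, only Ccl9 and Wfdc17 were past the size used here, 1.5-fold on the scale of CPM plus 1. Of 13973 genes with at least 20 UMIs, all 5 members among them, 1.02% were past it higher and 2.32% past it lower in STAT5 KO. Ccl9 stood 25th from the top and Wfdc17 22nd from the bottom of these genes, ranks that restate why they were chosen. The median log2 ratio of all these genes was -0.013. With 10 CPM added in place of 1, 41 genes were past it higher and 56 lower, and the log2 ratios of Ccl9 and Wfdc17 were 1.05 and -1.21.

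Cells were sorted into lineage classes by the transcripts of a few marker genes fixed as gates: Hlf, Mecom and Procr together for HSC-like cells, Dntt for lymphoid, Pf4 for megakaryocyte, Klf1 with Gata1 for erythroid, the granule genes Elane, Prtn3 and Ctsg for myeloid granule, and Ms4a2, Fcer1a, Mcpt8 and Prss34 for mast/basophil. These classes are ranges of transcript levels rather than cell types. In each class 5 of 5 check markers were higher than in the other cells, except 4 of 5 for mast/basophil in control. The control library held 426 HSC-like, 736 lymphoid, 50 megakaryocyte, 58 erythroid, 212 myeloid granule and 8 mast/basophil cells, and 1458 cells outside every gate. The STAT5 KO library held 299, 1821, 175, 117, 938 and 72 cells of these classes, and 2892 outside every gate. A further 137 and 412 cells met more than 1 gate. For the myeloid granule gate 28.2% of control and 38.4% of STAT5 KO cells lay within 2-fold of the threshold on either side, so that class shades into the rest.

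Ccl9 was highest in the myeloid granule class of both libraries and was higher in STAT5 KO in most classes. In the myeloid granule class, which carries neutrophil and monocyte precursors' granule genes, it was at 201 CPM (188 to 215) in control against 304 CPM (294 to 313) in STAT5 KO. In the lymphoid class it was at 63.2 and 134 CPM, a log2 ratio of 1.08 (0.96 to 1.20). In the HSC-like class it was at 32.4 and 81.6 CPM, a log2 ratio of 1.33 (1.08 to 1.59). The cells outside every gate had 53.4 and 107 CPM, a log2 ratio of 1.00 (0.90 to 1.10), and those of more than 1 gate 106 and 230 CPM. The HSC-like ratio was thus larger than the myeloid granule ratio of 0.59 (0.49 to 0.70), a difference that was not tested.

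Levels of Ccl9 were low where megakaryocyte or erythroid genes were expressed. The megakaryocyte class had 7.42 CPM (7 UMIs) in control against 20.1 CPM (42 UMIs) in STAT5 KO. The erythroid class had 17.9 CPM (12.1 to 25.6) and 15.4 CPM (10.8 to 21.3), which do not differ beyond counting error. Over the 6 classes with at least 20 cells in each library, the interval of the Ccl9 ratio lay above 0 in 5. The share of all genes with an interval above 0 was not computed, and the shares that follow use the 1.5-fold size instead. In the same classes 3.23% (HSC-like), 1.86% (lymphoid), 8.91% (megakaryocyte), 4.99% (erythroid), 3.59% (myeloid granule) and 1.65% (no gate) of genes were past 1.5-fold higher in STAT5 KO. The shares were 24.1% in the mast/basophil class and 3.6% among cells of more than 1 gate. In control the erythroid and megakaryocyte levels do not differ beyond their intervals, and neither do the myeloid granule and mast/basophil levels.

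**Figure D1:**
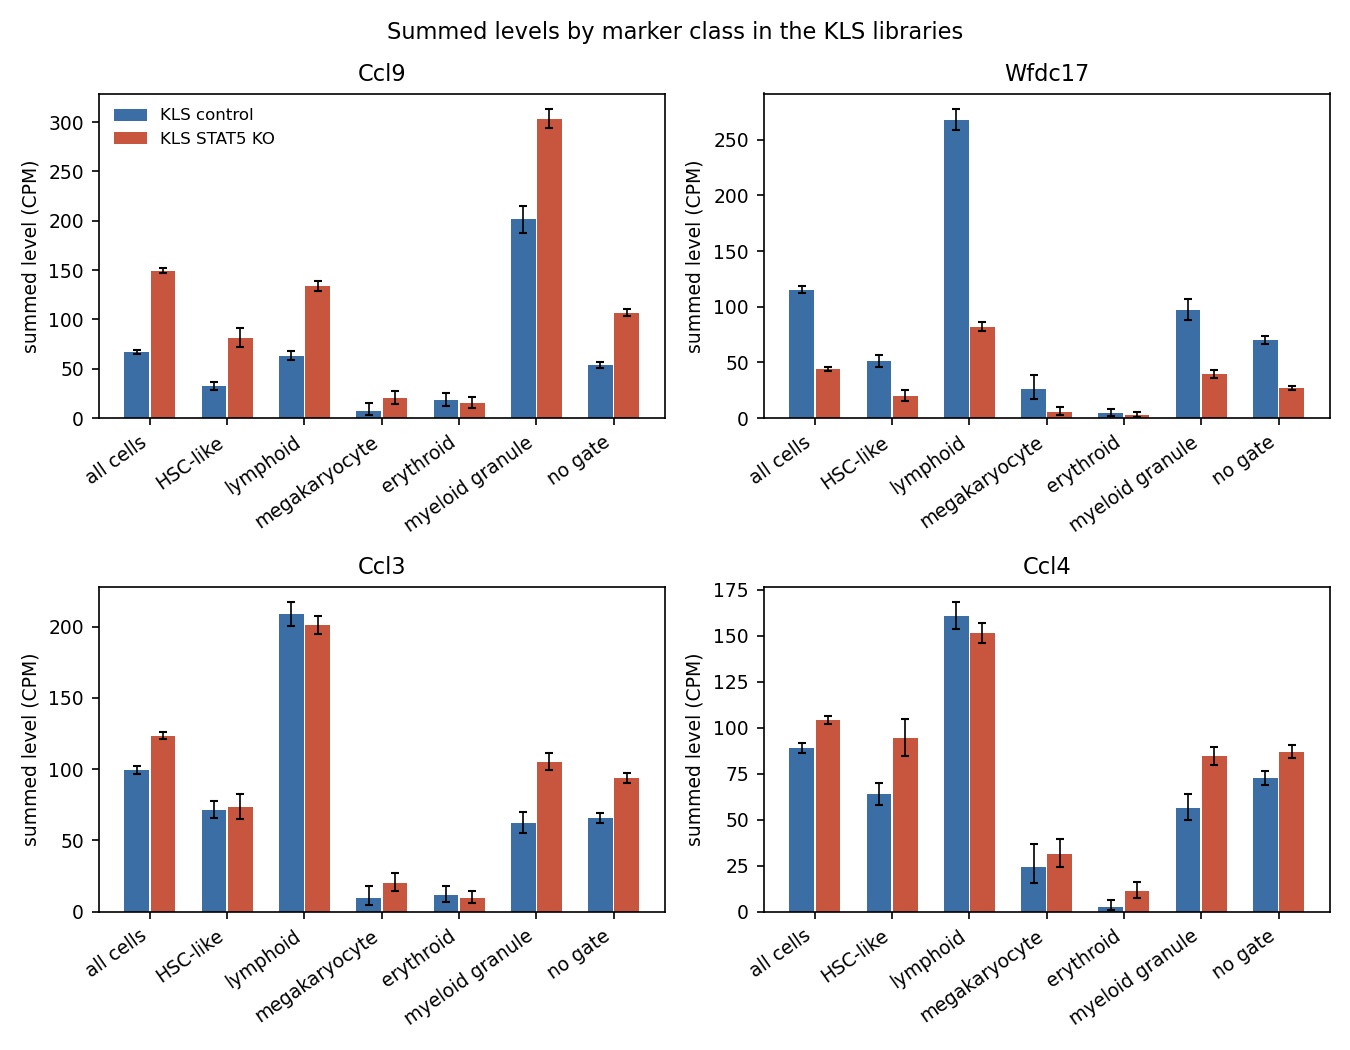
Summed levels of Ccl9, Wfdc17, Ccl3 and Ccl4 in CPM (bars from 0) over all KLS cells and by marker class, in control (blue) and STAT5 KO (red), with exact 95% Poisson intervals for counting error. Ccl9 is highest in the myeloid granule class (201 and 304 CPM) and Wfdc17 in the lymphoid class (268 and 81.9 CPM).

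Wfdc17 had another class order, with its highest level in cells that express the lymphoid gene Dntt. In the lymphoid class it was at 268 CPM (259 to 278) in control against 81.9 CPM (78.0 to 85.9) in STAT5 KO, a log2 ratio of -1.71 (-1.80 to -1.62). That class held 53.4% of all Wfdc17 UMIs in control and 49.7% in STAT5 KO. In the myeloid granule class it was at 96.8 and 39.8 CPM, in the cells outside every gate at 70.1 and 26.8 CPM, and in the HSC-like class at 51.2 and 19.7 CPM. The log2 ratios of these 3 classes were -1.28, -1.39 and -1.38, and their intervals overlap. Each of the 4 classes was lower in STAT5 KO by more than counting error.

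In the rarer classes Wfdc17 rested on few UMIs. The megakaryocyte class had 25 UMIs in control and 12 in STAT5 KO, or 26.5 and 5.75 CPM, a log2 ratio of -2.21 (-3.33 to -1.16). The erythroid class had 7 and 6 UMIs, or 4.19 and 2.56 CPM, a difference within counting error. The interval of the Wfdc17 ratio lay below 0 in 5 of the 6 classes. The share of all genes with an interval below 0 was not computed either. Genes past 1.5-fold lower made up 4.35% (HSC-like), 3.05% (lymphoid), 6.08% (megakaryocyte), 10% (erythroid), 3.43% (myeloid granule) and 2.25% (no gate) of those counted in the same classes, 13.1% in the mast/basophil class and 6.41% among cells of more than 1 gate.

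**Figure D2:**
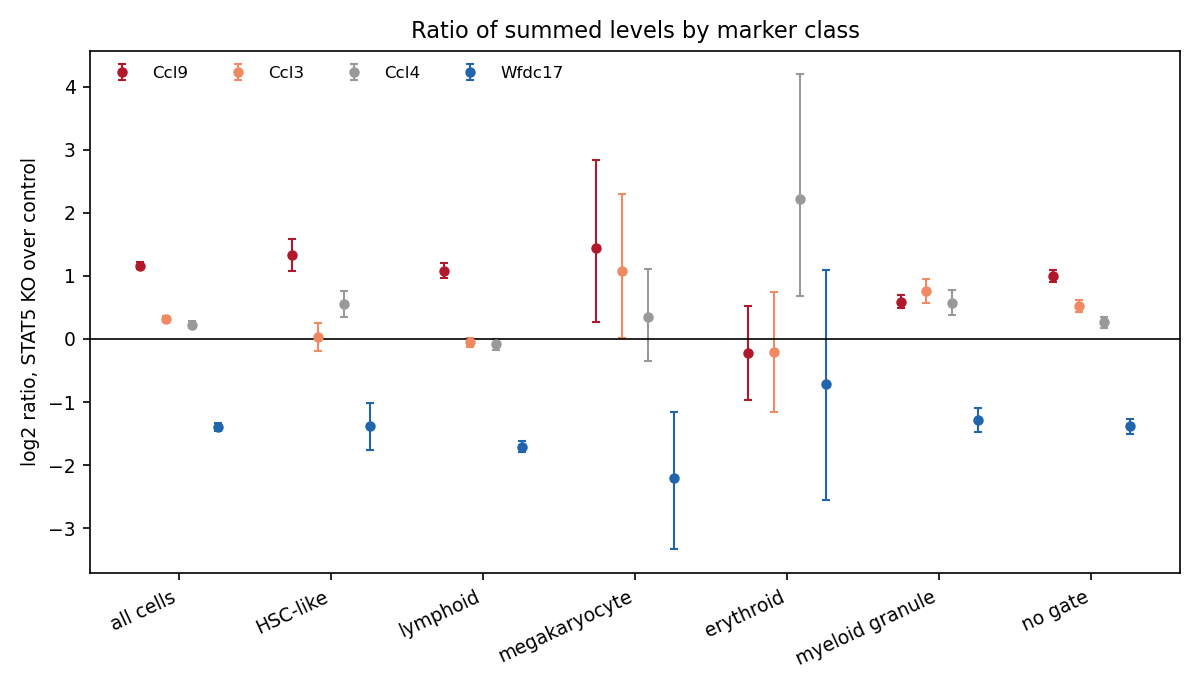
Log2 ratio of summed CPM, STAT5 KO over control, for Ccl9, Ccl3, Ccl4 and Wfdc17 over all KLS cells and by marker class, with exact conditional 95% intervals for counting error. Points of Wfdc17 lie below 0 in every class shown, with intervals that include 0 only in the erythroid class, and points of Ccl9 lie above 0 except in the erythroid class (-0.23).

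Ccl3 and Ccl4 shared the lymphoid class as their highest of the 6, and there they did not follow the library-wide order. Ccl3 in the lymphoid class was at 209 CPM (200 to 217) in control against 201 CPM (195 to 207) in STAT5 KO, a log2 ratio of -0.054 (-0.13 to 0.019). Ccl4 there was at 161 CPM (153 to 168) and 151 CPM (146 to 157), a log2 ratio of -0.087 (-0.17 to -0.004). In the same lymphoid cells Ccl9 was higher and Wfdc17 lower in STAT5 KO, so the 4 genes had different orders of the genotypes in the same cells. In the 8 control and 72 STAT5 KO cells of the mast/basophil class Ccl3 was at 709 and 222 CPM and Ccl4 at 399 and 224 CPM.

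In the myeloid granule class Ccl3 was at 62.1 CPM in control against 105 CPM in STAT5 KO, a log2 ratio of 0.76 (0.57 to 0.96), and Ccl4 at 56.5 and 84.3 CPM, a log2 ratio of 0.58 (0.38 to 0.78). In the cells outside every gate the ratio of Ccl3 was 0.52 (65.5 and 94.01 CPM) and that of Ccl4 0.26 (72.5 and 86.9 CPM). In the HSC-like class Ccl3 was at 71.5 CPM (65.5 to 77.9) and 73.3 CPM (64.7 to 82.7), which do not differ beyond counting error, while Ccl4 was at 63.9 and 94.1 CPM, a ratio of 0.56 (0.35 to 0.76). Megakaryocyte and erythroid levels were low, between 9.54 and 20.1 CPM for Ccl3 and between 2.39 and 31.1 CPM for Ccl4. In control the HSC-like, no-gate and myeloid granule levels of Ccl3 do not differ beyond their intervals.

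Ccl6, the low member, was concentrated in few cells. In control 2 cells and in STAT5 KO 3 cells had at least 5 UMIs of Ccl6, and 2 cells of each library were in the mast/basophil class. That class held 21.6% of the Ccl6 UMIs of the control library and 18.1% of those of STAT5 KO, at 179 CPM (22 UMIs) and 43.2 CPM (28 UMIs). In the other gates and the cells outside every gate Ccl6 was between 0 and 3.18 CPM. The 1% of cells with the most Ccl6 UMIs held 52.0% of them in control and 65.8% in STAT5 KO. The same measure was 8.97% to 15.8% for the other 4 genes and 3.52% and 3.62% for all UMIs.

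The share of cells with a UMI depends on depth, so each KLS cell was also thinned to 4600 UMIs, which left out 27 control and 658 STAT5 KO cells as too shallow. At this depth Ccl9 was seen in 607 of 3058 control cells (18.5% to 21.3%) and in 38.6% (37.4% to 39.8%) of 6068 STAT5 KO cells. Without thinning the shares were 38.3% and 53.7%. Wfdc17 was seen in 25.9% (24.4% to 27.5%) of control cells and 15.4% (14.5% to 16.3%) of STAT5 KO cells, against 44.2% and 27.0% without thinning. Shares of cells and summed levels of both genes thus had the same order.

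Ccl3 was seen in 22.2% of thinned control cells and 27.5% of thinned STAT5 KO cells, and Ccl4 in 25.3% and 26.4%, intervals that overlap for Ccl4. Without thinning Ccl4 had the opposite order, 43.2% in control and 39.0% in the shallower STAT5 KO library, so no difference in its share of cells is read from these data. Ccl6 was seen in 0.621% and 0.824% of thinned cells. The erythroid class had thinned shares of 1.72% and 7.08% for Ccl9 and 3.45% and 5.31% for Ccl3. For Ccl4 it had 3.45% in control and 0 of 113 cells in STAT5 KO. The unthinned shares of Ccl4 in this class went the other way, 6.90% and 10.3%. So did its summed levels, 2.39 CPM (4 UMIs) and 11.1 CPM (26 UMIs), a log2 ratio of 2.21 (0.69 to 4.19). No order of the genotypes is therefore read for Ccl4 in this class. For Wfdc17 the erythroid class had 0 of 58 and 0 of 113 cells, which allows shares of up to 5.17% and 2.66%. The part of free RNA in these shares was not tested. Erythroid-class cells were deeper before thinning, with medians of 24608 and 17790 UMIs. By class, the thinned share of Ccl9 was 52.1% and 67.8% in myeloid granule cells, 22.2% and 40.4% in lymphoid cells and 10.4% and 21.1% in HSC-like cells. That of Wfdc17 was 51.4% and 27.6% in lymphoid cells, 30.8% and 14.96% in myeloid granule cells and 13.2% and 8.997% in HSC-like cells, where the intervals overlap.

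**Figure D3:**
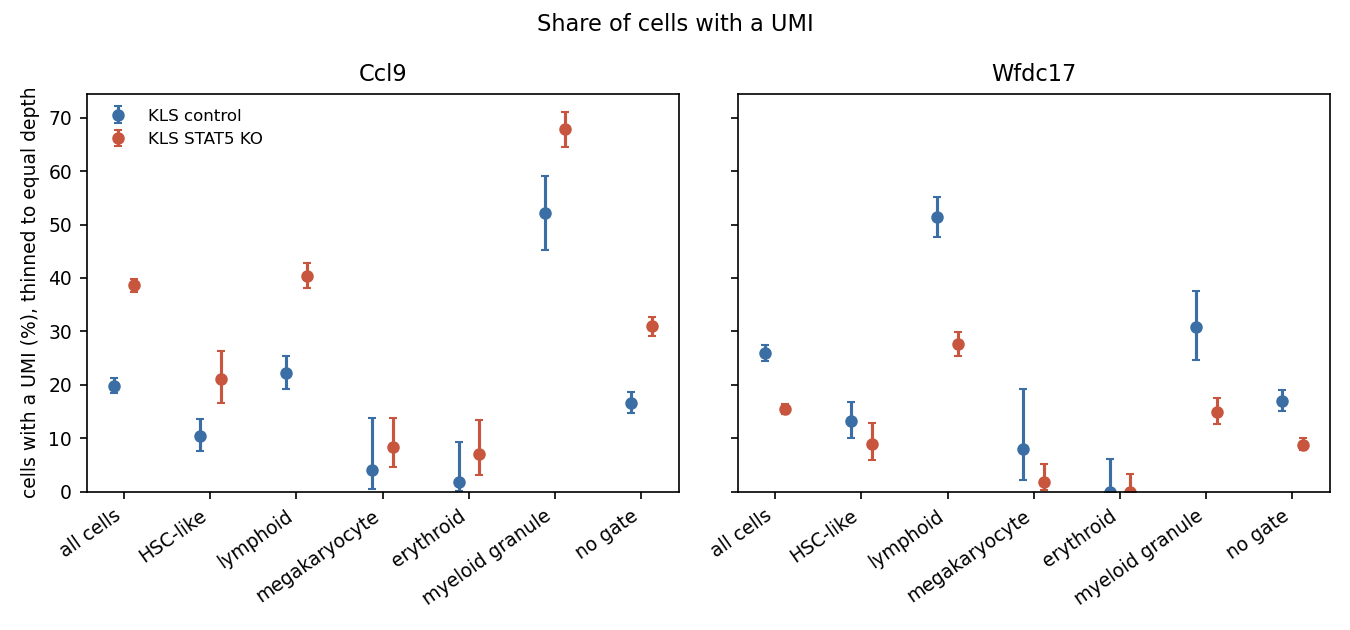
Percent of KLS cells with at least 1 UMI of Ccl9 (left) or Wfdc17 (right) after every cell was thinned to 4600 UMIs, in control (blue) and STAT5 KO (red), with exact Clopper-Pearson 95% intervals for counting error. Over all cells Ccl9 goes with a higher share in STAT5 KO (38.6%) and Wfdc17 with a lower one (15.4% against 25.9%).

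Within a library, transcripts of these genes occurred partly in the same cells. Across the 3085 control cells the Pearson correlation of log counts per 10000 UMIs was 0.44 for Ccl3 with Ccl4, 0.43 for Ccl3 with Wfdc17 and 0.22 for Ccl9 with Wfdc17. Across the 6726 STAT5 KO cells the same pairs had 0.36, 0.24 and 0.15. Cells of a library share depth and lineage class, and these values are descriptions. In thinned control cells Ccl4 was seen in 43.8% of the cells with Ccl3 and 20.0% of those without, and in STAT5 KO in 43.5% and 20.0%. Wfdc17 was seen in 46.9% of control cells with Ccl3 and 19.9% of those without, and in 23.5% and 12.3% in STAT5 KO. Having Ccl3 thus went with Ccl4 to a like extent in both libraries. Wfdc17, chosen for its lower level, was seen in fewer STAT5 KO cells both with and without Ccl3.

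The genes with class patterns most like those of Ccl9 and Wfdc17 were found by the Pearson correlation of log2 of CPM plus 10 over 12 points, 6 classes in each of 2 libraries, among 10151 genes. The points share their libraries and gates, and they include the genotype difference by which Ccl9 and Wfdc17 were chosen. Genes with a like difference are thus favoured by construction. For Ccl9 they were Mpo (0.98), the myeloperoxidase of granulocyte precursors, S1pr3 (0.97), Atp8b4 (0.97), Ttyh2 (0.97) and Pycard (0.95). For Wfdc17 they were Ctss (0.97), a lysosomal protease, Tmem206 (0.97), Tnfrsf13c (0.97), Lpcat2 (0.97) and Bin1 (0.96). Ccl3 and Ccl4 had a correlation of 0.94 with each other on this measure, and Ccl9 and Wfdc17 one of 0.52. Mpo was at 548 CPM in control against 1053 CPM in STAT5 KO, and Ctss at 21.3 and 15.6 CPM. Mpo and Ttyh2 lie on chromosome 11 too, at -13.1 and 13.8 Mb from the start of Stat5a (negative is before it). The part of that linkage in their values was not tested.

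A minority of STAT5 KO cells still had Stat5a or Stat5b transcripts: 225 cells had 1 UMI of these genes and 229 had 2 or more, against 6272 cells with none. Ccl9 was at 154 CPM (151 to 157) in the cells with none, 97.1 CPM (84.8 to 111) in those with 1 UMI and 80.8 CPM (71.5 to 90.9) in those with 2 or more. Wfdc17 was at 46.6 CPM (45.0 to 48.2), 18.04 CPM (13 to 24.4) and 10.1 CPM (6.97 to 14.1) in the same order. Cells with Stat5 transcripts thus had a Ccl9 level nearer to that of the control library (66.7 CPM) and a Wfdc17 level farther from it (115 CPM). Ccl3 was at 131, 38.2 and 30.8 CPM and Ccl4 at 109, 42.5 and 34.9 CPM, lower where Stat5 transcripts were seen.

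These groups of cells also differed in depth and class. The lymphoid class made up 28.7% of the STAT5 KO cells with no Stat5 UMI and 3.06% of those with 2 or more, and median depth was 10076 and 13104 UMIs. Outside every gate, Wfdc17 was at 29.1 CPM in the 2652 cells with none and 3.75 CPM (6 UMIs) in the 130 cells with 2 or more, and Ccl9 at 111 and 75.6 CPM. Within the gated classes the cells with 2 or more were few, and the Wfdc17 intervals of the compared groups overlapped in 3 of the 4 classes with values. In the myeloid granule class Wfdc17 was at 39.6 CPM (36.2 to 43.3) in cells with none and 29.98 CPM (14.97 to 53.7) in 20 cells with 2 or more. In the HSC-like class it was at 22.4 CPM (17.3 to 28.6) and 10.5 CPM (2.16 to 30.5, 26 cells). In the megakaryocyte class it was at 5.45 CPM (2.49 to 10.4) and 9.70 CPM (2.001 to 28.4, 17 cells), the opposite order. In the lymphoid class it was at 82.3 CPM (78.4 to 86.4) and 29.3 CPM (7.97 to 74.9, 4 UMIs in 7 cells). In the control library, where neither gene is floxed, the cells with 2 or more Stat5 UMIs also had lower levels than the cells with none, 83.8 against 215 CPM for Wfdc17 and 62.6 against 79.2 CPM for Ccl9. Among cells with 2 or more Stat5 UMIs, Wfdc17 was thus lower in STAT5 KO (10.1 CPM) than in control (83.8 CPM, 80.7 to 87.0), and Ccl9 was higher (80.8 against 62.6 CPM, 59.9 to 65.3). The part of depth, class and free RNA in these values was not tested.

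**Figure D4:**
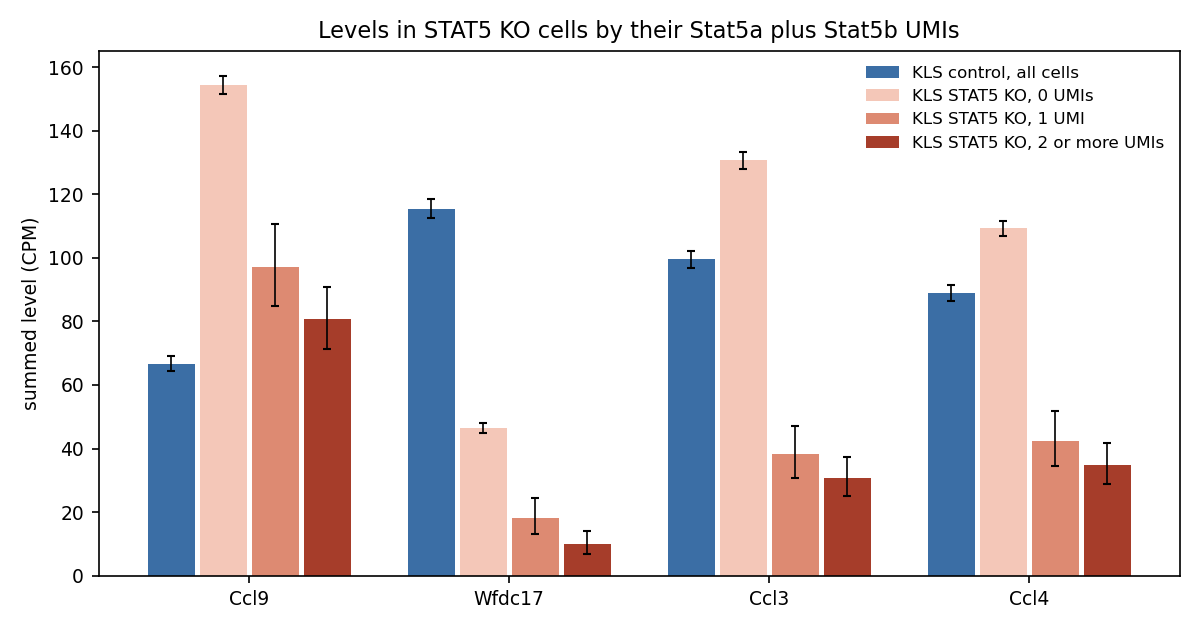
Summed CPM (bars from 0) of Ccl9, Wfdc17, Ccl3 and Ccl4 in all KLS control cells and in KLS STAT5 KO cells with 0, 1 and 2 or more UMIs of Stat5a plus Stat5b, with exact 95% Poisson intervals for counting error. All 4 genes are lower in STAT5 KO cells with 2 or more UMIs than in those with 0, at 80.8 against 154 CPM for Ccl9 and 10.1 against 46.6 CPM for Wfdc17.

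The members and the floxed genes lie on one chromosome, so the genes around them were measured as well. Within 1 Mb of the 5 genes the annotation has 51 genes of the tables, and 29 besides the members had at least 20 UMIs. On the scale of CPM plus 1, none of the 29 was past 1.5-fold higher and 5 were past it lower in STAT5 KO. The median log2 ratio of the 29 was 0.036. Of all genes counted, 1.02% were past it higher and 2.32% lower. The 5 were Gm20234 (14.3 CPM in control, 0.615 CPM in STAT5 KO), Slfn5 (8.60 and 3.12 CPM), 1700020L24Rik (4.56 and 1.85 CPM), Unc45b (2.93 and 0.72 CPM) and Mmp28 (39 and 3 UMIs, 0.763 and 0.0393 CPM). Mmp28, with under 100 UMIs, falls outside the naming rule and was named after its values were seen. Slfn9 lay at the cutoff on the higher side (31.7 and 48.0 CPM). Its ratio with nothing added was 1.52-fold (1.43 to 1.61). Slfn3 was at 1.58 and 2.47 CPM, 1.56-fold higher (1.20 to 2.05) with nothing added. Gm20234 overlaps Slfn2, a Schlafen family gene, on the opposite strand, and without a stated strand rule their reads cannot be told apart with certainty. Among close neighbours of the members, Ccl5 was at 7.67 and 6.85 CPM, Wfdc18 at 7.18 and 5.03 CPM (log2 ratio -0.51, -0.72 to -0.30) and Taf15, a general transcription factor subunit, at 97.2 and 99.7 CPM.

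The 5 lower neighbours did not share 1 pattern across the cells with Stat5 transcripts. Gm20234 was at 0.622 CPM in STAT5 KO cells with no Stat5 UMI and had no UMI in those with 2 or more, which allows up to 3 UMIs. Unc45b was at 0.269 CPM (0.162 to 0.420) in cells with none and 5.62 CPM (3.38 to 8.78, 19 UMIs) in cells with 2 or more, against 2.93 CPM in the control library. Slfn5 was at 2.999 and 3.55 CPM in these cells, against 8.60 CPM in control. The stromal libraries also held transcripts of erythroid markers, at a summed 22290 CPM in control against 10315 CPM in STAT5 KO, and of neutrophil markers, at 1323 against 453 CPM. In this sort Slfn5 was at 98.9 CPM (84.8 to 115) in control against 66.7 CPM (52.9 to 83.0) in STAT5 KO, a log2 ratio of -0.57 (-0.97 to -0.18), and the part of those other cells in it was not tested. Of the 18 genes of this window with at least 20 UMIs in the MSC libraries, none was past 1.5-fold higher and 4 were past it lower, while 8.49% and 12.1% of the 10167 genes counted there were past it in those directions.

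Across chromosome 11, 2.10% of 1145 genes were past 1.5-fold higher and 3.23% past it lower in KLS STAT5 KO, against 0.929% and 2.24% of 12813 genes on the other chromosomes. The chromosome 11 counts include the members, Stat5a and Stat5b. For 1 direction alone, some other chromosomes had shares above its own. Chromosome 13 had 2.73% higher, and chromosomes X and 4 had 3.98% and 3.3% lower. For either direction, chromosome 11 had the largest share of the single chromosomes, 5.33%, followed by chromosome 13 with 4.94%. The other chromosomes as a set had 3.17%. By distance from Stat5a, 7 of the 47 genes (14.9%) from 20 to 15 Mb before it were past 1.5-fold in either direction, Ccl9 and Wfdc17 among them. From 15 to 10 Mb before it the share was 20.4% of 49 genes. In the bins next to Stat5a it was 7.53% of 93 genes on the near side and 5.75% of 87 genes on the far side, with Stat5a and Stat5b among those counted. The labels used here name no strain for the floxed alleles, and the part of the members' linkage to the floxed genes in their ratios was not tested.

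**Figure D5:**
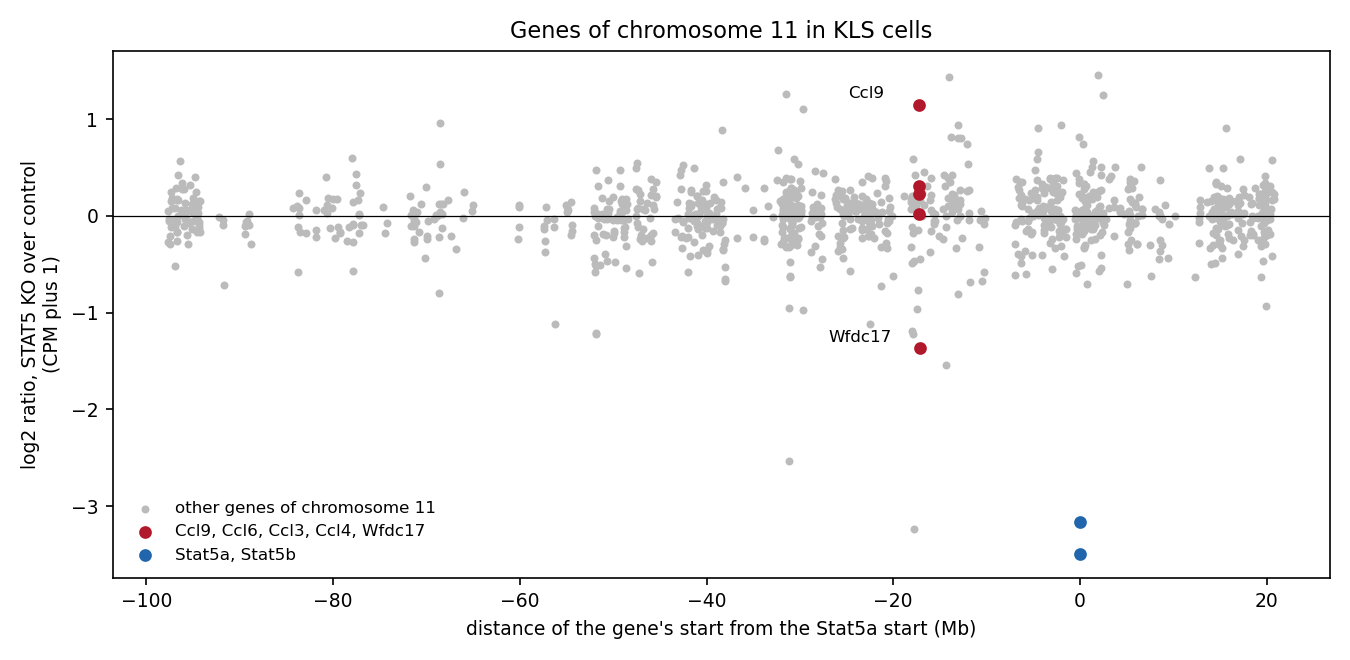
Log2 ratio (STAT5 KO over control, CPM plus 1) of the genes of chromosome 11 with at least 20 UMIs in KLS cells, against the distance of their start from that of Stat5a in Mb. Ccl9 lies near 1.15 and Wfdc17 near -1.37, both about 17 Mb from Stat5a, with the other members close to 0 and Stat5a and Stat5b below -3.

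Receptors were measured in the same KLS cells. Ccr1, the receptor of Ccl6, Ccl9 and Ccl3, was at 0.782 CPM (40 UMIs) in control against 0.707 CPM (54 UMIs) in STAT5 KO. Of 13 measured chemokine receptors 2 were past 1.5-fold higher on the scale of CPM plus 1 and none lower, with a median of -0.028. That is 15.4% higher, against 1.02% of all genes. These were Ccr2, the monocyte receptor of Ccl2 (3.13 and 6.74 CPM), and Ackr1, a decoy receptor (7 and 61 UMIs). In the myeloid granule class Ccr2 was at 14.6 and 26.4 CPM, and in the lymphoid class at 3.32 and 3.04 CPM. Cxcr4, the receptor of Cxcl12, was at 80.7 and 95.9 CPM.

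Of 14 other chemokines measured, Pf4, a platelet chemokine that also served as a gate, was past 1.5-fold higher (54.3 and 83.6 CPM) and Cx3cl1 past it lower (52 and 26 UMIs), with a median of 0.071. That is 7.14% in each direction, against 1.02% of all genes higher and 2.32% lower. Xcl1 had no UMI in control and 28 in STAT5 KO. Of 8 proteins with a whey acidic protein domain or other secreted protease inhibitors, 1 was past 1.5-fold higher, Slpi (5.77 and 12.0 CPM), and none lower, with a median of -0.069. Wfdc2 was at 3.97 and 2.91 CPM.

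Genes that act after chemokine receptors, and genes that commonly go with chemokine induction, were measured as well. Over all genes 1.02% were past 1.5-fold higher and 2.32% past it lower. At those shares a list of 20 genes would hold few or none, so the counts below say little about these lists. None of 20 receptor signalling genes was past 1.5-fold, with a median of -0.015, among them Gnai2, the inhibitory G protein subunit (609 and 603 CPM), and Rac2 (363 and 319 CPM). None of 19 early response and NF-kB genes was past it either, with a median of -0.113. Dusp2, a phosphatase of activated leukocytes, was at 208 and 144 CPM, Ier2 at 207 and 157 CPM, Nfkbia at 94.2 and 94.1 CPM and Jun at 378 and 426 CPM. Of 20 myeloid regulators 1 was past it higher, Bcl6, a transcriptional repressor (4.48 and 7.54 CPM), and none lower, with a median of -0.029. Spi1, which encodes PU.1, was at 133 and 130 CPM and Csf3r, the G-CSF receptor, at 44.0 and 56.0 CPM.

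Markers of other cells that a KLS sort could hold were measured beside these genes. All 10 macrophage and monocyte markers were detected in both KLS libraries, at a summed 272 CPM in control against 228 CPM in STAT5 KO, of which Lyz2 made up 186 and 150 CPM. C1qa was at 2.87 and 1.44 CPM, C1qb at 2.93 and 1.18 CPM, C1qc at 2.50 and 0.694 CPM and Adgre1 at 0.528 and 0.17 CPM. Ms4a6c was at 45.8 and 40.5 CPM, and Csf1r and Ly86 also had lower levels in STAT5 KO. Cd68 and F13a1 of the same list had higher levels in STAT5 KO. Cd68 was at 10.05 and 11.1 CPM, with overlapping intervals, and F13a1 at 6.96 and 11.6 CPM. The 8 neutrophil markers summed to 5.05 and 4.70 CPM. In cells with at least 5 UMIs of Ccl9 the macrophage and monocyte list was at 373 CPM in control against 326 CPM in STAT5 KO, against 260 and 206 CPM in the rest. In cells with at least 5 UMIs of Wfdc17 it was at 285 and 220 CPM, against 270 and 228 CPM in the rest. In these Wfdc17 cells a B and plasma cell list was at 607 and 425 CPM, against 186 and 270 CPM in the rest. A dendritic list was at 926 and 832 CPM, against 661 and 698 CPM. Ighm and Flt3 of these lists were also check markers of the lymphoid class. Neutrophil, NK and T cell, stromal and erythroid lists were lower in these Wfdc17 cells. The part of other cell types in the members' ratios was not tested.

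In the stromal sort the 5 genes had few UMIs or none. Ccl9 had 9 UMIs in MSC control (5.12 CPM) and 2 in MSC STAT5 KO (1.67 CPM), and Wfdc17 had 1 UMI in each. Ccl3 had none in either library, which allows up to 1.71 and 2.50 CPM, so it was at least 58.4-fold higher in KLS than in MSC control, and at least 49.4-fold higher in KLS than in MSC STAT5 KO, with 3 counts per library as the floor. Ccl6 had 0 and 6 UMIs and Ccl4 had 0 and 1. All 10 member UMIs of MSC STAT5 KO were in 2 cells, both with Ptprc, the gene of the pan-leukocyte protein CD45. The 10 member UMIs of MSC control were in 6 cells, none with Ptprc. At this depth no comparison of genotypes was possible in the stromal cells.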

How the data were processed

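The authors deposited 1 table of raw UMI counts per library, with no normalization. Per the submitters' processing notes the reads were processed with Cell Ranger against GRCm38 (mm10), and per the file headers the version was 3.1.0. The strand rule and the annotation are not given in the sources used here. Gene positions are those of GENCODE M21 (GRCm38), in which 30934 of 31053 gene identifiers were found.

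A cell had to have 200 genes or more and no more than 10% of its UMIs from mitochondrial genes. The highest Scrublet scores (scanpy 1.11.5) were left out at 0.8% of barcodes per 1000 barcodes, which marked 112, 451, 3 and 1 barcodes in KLS control, KLS STAT5 KO, MSC control and MSC STAT5 KO. The automatic threshold marked 0, 1, 0 and 1 and did not work for the KLS libraries. Barcodes with more UMIs in another library were left out (369, 261, 32 and 10 cells, with medians of 661 to 906 UMIs). The deposited libraries held 3747, 7511, 672 and 425 barcodes with 55138419, 82466835, 1874023 and 1270763 UMIs. No correction for free RNA was made.

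Summed counts of a set of cells were divided by the UMIs of all genes in those cells to give CPM. As each group had a single library, no test was possible and no p-value was computed. Sums carry exact Poisson, shares Clopper-Pearson and ratios conditional binomial 95% intervals. These cover counting error only, not differences between mice or preparations, and PCR copies are removed only as far as UMIs mark them. A share of 0 is given with a limit of 3 counts. A gene counted as past 1.5-fold had at least 20 UMIs over both libraries and that ratio with 1 CPM added to both levels. Thinning drew 4600 UMIs per cell without replacement.

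The members, gene lists and gates were chosen with earlier results of these data known. Genes named besides the members and Stat5a and Stat5b are list genes, with preference for those of at least 10 CPM and for the 3 largest differences each way, genes within 1 Mb with at least 100 UMIs, and the 5 genes most like Ccl9 and Wfdc17. Ccl6 had too few UMIs (under 500) for that ranking. Promoter windows were read from RefSeq (GRCm38.p6), where the shown part is 250 bases. The alternatives tried were other rules for barcodes, doublets and cell quality, TMM factors (edgeR 4.0.16, used for scaling only) and median ratios, mean levels of single cells, weighting to the control classes, other pseudocounts and count minimums, and other gate thresholds. The scripts were tested on simulated counts. Some results for single genes and lists are not reported here.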

Additional observations from a re-analysis of the deposited data

Results flagged for a closer look

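In 4 cases a member's ratio in 1 class went the other way than in the cells outside every gate, with counting intervals on opposite sides of 0. With 1 library per group these differences between classes were not tested. Ccl4 had a log2 ratio of -0.087 (STAT5 KO over control) in the lymphoid class, whose interval reaches -0.004, against 0.26 in the cells outside every gate. In the mast/basophil class, with 8 control and 72 STAT5 KO cells, Ccl9 had a log2 ratio of -0.925, Ccl3 one of -1.675 and Ccl4 one of -0.836. There Ccl9 was at 187 CPM (23 UMIs) in control and 98.6 CPM (64 UMIs) in STAT5 KO, and Ccl3 at 709 CPM (87 UMIs) and 222 CPM (144 UMIs). The values of so few control cells depend on single cells, and the sign of Ccl9 changed with the gate.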

How the results depend on the processing

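No paired analysis was possible because each group is 1 library and the labels give no shared replicate numbers. Leaving out a replicate was not possible for the same reason. Of 50 recomputed ratios of the 5 genes over all KLS cells, 36 stayed within the counting interval of the reported value and 14 did not. Ccl9 stayed between 0.95 and 1.21 and Wfdc17 between -1.62 and -1.21, so neither changed direction. Weighting STAT5 KO to the control shares of the classes gave 0.952 for Ccl9, 0.220 for Ccl3 and -1.519 for Wfdc17. The mean over cells of single-cell CPM gave -0.494 for Ccl6, 0.195 for Ccl3, 0.056 for Ccl4 and -1.623 for Wfdc17. A pseudocount of 10 CPM gave 1.054 for Ccl9 and -1.214 for Wfdc17. A stricter filter on cells (1000 genes or more, mitochondrial share up to 5%) gave 0.323 for Ccl4 and -1.321 for Wfdc17. Leaving out STAT5 KO cells with a Stat5a or Stat5b UMI, an alternative chosen after seeing the data, gave 0.393 for Ccl3, 0.297 for Ccl4 and -1.310 for Wfdc17. TMM factors and median ratios shifted all ratios by 0.023 and 0.025. With a pseudocount of 10 CPM, 41 genes instead of 143 were past 1.5-fold higher and 56 instead of 324 lower, since that pseudocount shrinks the ratios of low genes. Of 56 recomputed class ratios 46 stayed within the counting interval and 8 moved outside it with the same sign. The other 2 changed the sign of a value whose interval excluded 0: Ccl9 in the mast/basophil class, -0.925 as reported, was 0.460 with doubled gate thresholds and 0.462 with cells of more than 1 gate counted in each. The cause was not tested. Among the 46, which lie within wide intervals, 4 also changed sign: Ccl9 in the erythroid class (-0.225) was 0.295 with doubled thresholds and 0.378 with cells of more than 1 gate counted in each, Wfdc17 in the mast/basophil class (-1.179) was 0.556 with doubled thresholds, and Ccl6 in the myeloid granule class (-0.242) was 0.161 with cells of more than 1 gate counted in each. Of 10 recomputed differences in the share of cells 8 moved outside the counting interval, and that of Ccl4 went from 1.11 percentage points with thinning to -4.23 without. Depth limits Ccl6, with 102 and 155 UMIs, the mast/basophil class and every member in the stromal libraries.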

Other observations

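The cells with many transcripts of a member fell into different classes. Of 223 control and 779 STAT5 KO cells with at least 5 UMIs of Ccl9, 36.3% and 45.3% were in the myeloid granule class and 14.3% and 19.1% in the lymphoid class. Of 408 control cells with at least 5 UMIs of Wfdc17, 55.1% were in the lymphoid class, and of the 107 such cells of STAT5 KO 59.8% were. For Ccl3 the lymphoid class held 50.4% of 367 control cells and 46.0% of 693 STAT5 KO cells with at least 5 UMIs, and for Ccl4 45.7% of 324 and 40.9% of 536. These counts are not adjusted for depth, which was higher in control.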
